A study of Mus musculus with 12 samples.

Results

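The nuclear-encoded subunits of the oxidative phosphorylation machinery were followed in mouse rod photoreceptors and in whole retina. Members were taken by gene name alone, as the genes of complex I (names starting with Nduf followed by a, b, c, s or v), complex III (Uqcr), complex IV (Cox4 to Cox8) and complex V (Atp5). Of 56748 genes listed, 101 carried such a name, 14 of these were named as pseudogenes or opposite-strand transcripts and were left out, and 6 of the remaining 87 stayed under 10 scaled counts in all but at most 2 of the 12 libraries. The 81 members were 40 genes of complex I, 8 of complex III, 16 of complex IV and 17 of complex V. Among the 6 genes left out, the heart and muscle isoform Cox6a2 reached 14 scaled counts in 1 library, and Cox8c, Cox7b2, Ndufb11b, Ndufa11b and a second entry named Atp5o did not pass 2. RefSeq lists the members Cox6c2 and Ndufs6b as pseudogenes, and both were low, at 32 to 103 and 4 to 18 scaled counts.

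Complexes I, III and IV pass electrons from NADH to oxygen and pump protons across the inner mitochondrial membrane, and complex V, the ATP synthase, uses the returning protons to make ATP. Most subunits are encoded in the nucleus, translated in the cytosol and imported, while a few hydrophobic subunits of each complex are encoded by mitochondrial DNA. Rods pack long mitochondria into their inner segments, where ATP drives the ion pumps that sustain the dark current, and several complex IV subunits exist as paired isoforms with different tissue ranges.

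All mice were 2-month-old littermates carrying RiboTag, a ribosomal protein allele that gains an epitope tag after Cre recombination, and i75-Rod-Cre, in which a rhodopsin promoter drives Cre in rods. Control mice were RiboTag; i75-Rod-Cre, and Abca4Ko mice were RiboTag; Abca4-/-; i75-Rod-Cre, lacking a retinoid transporter of the photoreceptor outer segment. From each genotype, 3 libraries were made from polyadenylated RNA on tagged ribosomes pulled down in cycloheximide (rod TRAP, 10 ng RNA) and 3 from the retinal lysate (retina, 5 ng RNA), giving 12 libraries. The sex of the mice and any pooling of retinas were not given in the sources used here, so the spread between the 3 libraries of a group may be technical.

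Abca4 was at 61017, 53193 and 53533 scaled counts in control rod TRAP and at 195, 365 and 13156 in Abca4Ko rod TRAP. It was at 38929, 37619 and 38090 in control retina and at 153, 366 and 8124 in Abca4Ko retina. The libraries labelled Abca4Ko replicate 3 thus held 23.5% and 21.3% of the control means, against 0.349% to 0.958% in the other Abca4Ko libraries. In comparisons that involve Abca4Ko, the counts and medians over all members are also given with these libraries left out. Medians by complex, the agreement of Abca4Ko with control, the length classes and the other pathway genes are given only with them included. Scaled counts, which the authors set to near-equal totals within a fraction, summed to 17096515 to 17097707 per rod TRAP library and 17860761 to 17862326 per retina library, and the depth recovered for 8 libraries was 14.8 M to 23.2 M reads. All 15 rod markers were higher in control rod TRAP than in control retina, while the summed level of 8 Müller glia markers in CPM, scaled counts per 1000000 of a library's total, was 146 to 167 in rod TRAP and 4373 to 6816 in retina. Retina is a mixture of cell types, so in it fewer cells of a type and less RNA per cell cannot be told apart.

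In control, these messages took a lower share of all messages in rod TRAP than in retina, and complexes IV and V stood in different proportions. In TPM, the share of transcripts after division by transcript length, set to 1000000 per library, the members summed to 25210 ± 474 (SD, n = 3) in control rod TRAP, 25600 ± 2135 in Abca4Ko rod TRAP, 33100 ± 2797 in control retina and 30020 ± 1986 in Abca4Ko retina. This was 2.52%, 2.56%, 3.31% and 3.00% of all TPM. The control libraries did not overlap between fractions, whereas in Abca4Ko rod TRAP replicate 1, at 28050 TPM, lay above the retina library labelled replicate 3, at 27810. Within each same-numbered Abca4Ko pair rod TRAP was lower, at 28050 against 30600, 24560 against 31650 and 24180 against 27810. The complex IV sum was 4445 ± 104 TPM in control rod TRAP and 7280 ± 698 in control retina, and the complex V sum was 8319 ± 182 and 9928 ± 777. Complex I summed to 9785 ± 190 and 12440 ± 1060 TPM, and complex III to 2659 ± 80.4 and 3446 ± 268.

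As a share of the members' TPM, complex IV made up 17.6% in control rod TRAP, 18.5% in Abca4Ko rod TRAP, 22.0% in control retina and 22.5% in Abca4Ko retina. The 6 rod TRAP libraries lay at 17.5 to 19.1% and the 6 retina libraries at 21.7 to 22.7%, without overlap. Complex V took the larger share in rod TRAP, at 32.6 to 33.2%, against 29.7 to 30.6% in retina, again without overlap. The share of complex III, at 10.6% and 10.4% in control, and that of complex I, at 38.8% and 37.6%, differed less between the fractions.

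**Figure D1:**
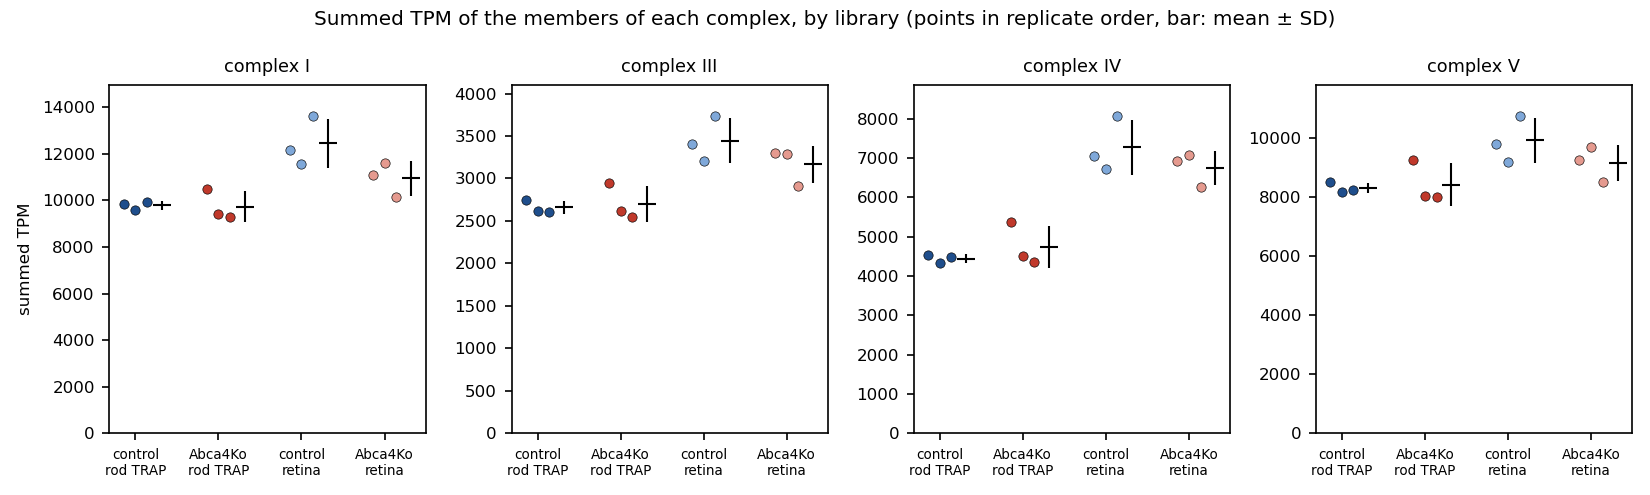
Summed TPM of the members of complexes I, III, IV and V in each of the 12 libraries, with points for libraries and bars for the mean and SD of 3 libraries per group. The complex IV sum lies near 4445 TPM in control rod TRAP and near 7280 TPM in control retina.

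The most abundant members were Atp5b, the catalytic beta subunit of the ATP synthase, and Ndufa4, a small subunit grouped here by its name with complex I although it is found with complex IV. The sums and shares by complex given above and below count Ndufa4 with complex I and depend on this grouping. Atp5b was at 1922 ± 45.9 TPM (n = 3) in control rod TRAP and 1581 ± 91.9 in control retina, and Ndufa4 at 1637 ± 63.9 and 1636 ± 144. Together they held 14.1% of the members' TPM in control rod TRAP and 9.73% in control retina. Atp5a1, the alpha subunit that alternates with beta in the catalytic ring, ranked 3 among members in control rod TRAP at 768 ± 37.7 TPM and 15 in control retina at 616 ± 55.2. The ratio of Atp5a1 to Atp5b TPM was nevertheless 0.400, 0.396, 0.390 and 0.400 in control rod TRAP, Abca4Ko rod TRAP, control retina and Abca4Ko retina. Small complex IV subunits stood the other way, with Cox4i1 at 692 ± 64.4 TPM in control rod TRAP and 1204 ± 170 in control retina, and Cox8a at 541 and 1100.

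In each genotype the fractions were set against each other to ask which messages are on rod ribosomes relative to their level in the tissue. Libraries were scaled by trimmed means, and log2(CPM + 0.5) values were fitted by limma with Benjamini-Hochberg adjustment over all genes tested, a gene being called at an adjusted p below 0.05. In control, 80 members were tested, of which 14 were higher in rod TRAP and 24 lower, and 42 were not called. Over all 16286 genes tested, 36.0% were higher and 39.3% lower, and the members' counts lie under both shares. The median log2 fold change was -0.19 over members and -0.05 over all genes. The scaling between fractions matters here: with the authors' scaling alone the median of all genes moved to -0.62 and that of members to -0.80, all 24 lower members were still called lower, and 1 of the 14 higher members, Ndufs1, was still called higher while 2 were called lower. Single retina libraries also set the counts: 6 members were higher without control retina replicate 1 and 5 without replicate 2, and 54 were lower without replicate 2 and 43 without replicate 3. Directions below are therefore relative to the median of the scaled libraries. Values of members set across fractions are CPM after trimmed-mean scaling unless they are given as scaled counts or TPM.

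Of 39 tested complex I members, 7 were higher and 9 lower in control rod TRAP. The higher members included the large catalytic subunits of the arm that protrudes into the matrix. Ndufs1, which carries several iron-sulfur clusters, was at 146, 155 and 144 CPM in control rod TRAP and 60.2, 57.2 and 42.8 in control retina. All 3 rod TRAP libraries were above all 3 retina libraries, and the log2 difference was 1.48 ± 0.14 (SE, n = 3 per group, adjusted p = 8.6e-07). Ndufv1, which binds NADH, was at 245, 247 and 233 CPM against 171, 158 and 211 (0.44, adjusted p = 0.0079), and Ndufa10 at 232, 239 and 247 CPM against 164, 154 and 194 (0.49, adjusted p = 0.0025). In each of these the groups did not overlap, but Ndufv1 and Ndufa10 were not called without control retina replicate 1 or 2, their lowest values being 0.13 and 0.20, and under the authors' scaling alone 3 of the 14 higher members of all complexes kept their sign, Ndufv1 moving to -0.19.

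Not every core subunit was called. Ndufv2 (-0.07), Ndufs3 (0.18), Ndufs7 (-0.32) and Ndufs8 (-0.17), which also carry or flank the electron path, did not pass the test. The 7 core subunits together made up 17.3 ± 0.663% of complex I TPM in control rod TRAP, 16.4% in Abca4Ko rod TRAP, 13.3 ± 0.218% in control retina and 12.9% in Abca4Ko retina. On the lower side, the small membrane-arm subunit Ndufa3 was at 23.6, 22.9 and 25.1 CPM in rod TRAP and 42.7, 30.4 and 48.3 in retina (log2 difference -0.72 ± 0.17, adjusted p = 0.0016), with no overlap. Ndufa6 (-0.51, adjusted p = 0.0046) and Ndufa11 (-0.50, adjusted p = 0.012) were lower too, Ndufa11 not being called without control rod TRAP replicate 1. Ndufa4l2, a paralog of Ndufa4, passed the filter on low values through retina alone, so that a lower value in rod TRAP was fixed by the filter and its p-value is no independent support. It was at 2, 1 and 1 scaled counts in control rod TRAP and 103, 35 and 55 in control retina (-2.41 ± 0.30, adjusted p = 8.6e-06). Ndufb2 was higher by 0.66 on scaled counts but lower by TPM (-0.67), so its direction depends on which deposited value is read.

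Of 8 complex III members, 4 were higher and 2 lower in control rod TRAP. Uqcrc2, a core protein of the matrix side, was at 130, 149 and 141 CPM in rod TRAP and 105, 96.7 and 106 in retina (log2 difference 0.45 ± 0.12, adjusted p = 0.0036). The other core protein, Uqcrc1, was at 276, 291 and 271 CPM against 219, 185 and 271 (0.33, adjusted p = 0.0495), its highest retina library lying level with the lowest rod TRAP library, and it lost its call in 5 of the 6 fits that leave out a library, moving to -0.03 without control retina replicate 2. Uqcrb (0.60, adjusted p = 0.0014) and the Rieske iron-sulfur protein Uqcrfs1 (0.31, adjusted p = 0.035) were the other members called higher. Uqcrfs1 lost its call in all 6 of those fits, with values of 0.03 to 0.34, Uqcrb was at 0.27 and not called without control retina replicate 2, and Uqcrc2 was not called without control retina replicate 1 or 2, its lowest value being 0.18. The small subunits Uqcr10, at 40.5, 41.7 and 43.5 CPM against 62.7, 52.6 and 78.0 (-0.60, adjusted p = 0.0027), and Uqcr11, at 38.4, 38.7 and 35.8 CPM against 57.3, 47.2 and 68.4 (-0.59, adjusted p = 0.0025), were lower in rod TRAP with no overlap. Uqcrh (-0.25) and Uqcrq (-0.05) were not called. Under the authors' scaling alone Uqcrc1, Uqcrc2 and Uqcrb were at -0.30, -0.18 and -0.02.

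No complex IV member was higher in control rod TRAP and 9 of 16 were lower, against 36.0% and 39.3% of all genes tested. The median log2 difference was -0.40. All complex IV members with a coding length were short, at 516 nt or under. Of other genes of at most 300 nt, 16.1% were higher and 57.6% lower, with a median of -0.57. Of those over 300 and up to 600 nt, 22.4% were higher and 45.7% lower, with a median of -0.27. The share of lower members is thus near that of other short genes. Cox8a, a small subunit present in most tissues, was at 113, 121 and 120 CPM in rod TRAP and 193, 157 and 234 in retina (-0.70, adjusted p = 7.0e-04). Cox7c was at 47.2, 44.0 and 50.9 CPM against 80.9, 61.6 and 80.9 (-0.64, adjusted p = 0.0011), and Cox4i1 at 258, 219 and 232 CPM against 334, 265 and 411 (-0.49, adjusted p = 0.012). In these genes every retina library was above every rod TRAP library. Cox7a2l, a factor for joining complexes into supercomplexes, was also lower (-0.69, adjusted p = 3.9e-04), as were Cox7a2 (-0.49) and Cox6b1 (-0.32, adjusted p = 0.046). Cox6b1 lost its call in 3 of the 6 fits that leave out a library, and Cox4i1 and Cox7a2 in 1 each. Cox5a (0.16), Cox7b (-0.06), Cox6c (-0.13), Cox6a1 (-0.21) and Cox7a1 (-0.21, adjusted p = 0.42) did not pass the test, and Cox5a was at -0.46 under the authors' scaling alone. The remaining called members, Cox4i2, Cox6b2 and Cox8b, are the tissue-restricted isoforms described with their partners further on. They passed the filter on low values mainly or wholly through retina. Their part in the count of 9 and in the median is therefore no independent support.

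Complex V had 3 of 17 members higher and 4 lower in control rod TRAP. The higher members were Atp5a1, Atp5b and Atp5pb, the last being subunit b of the stalk that holds the catalytic head in place. Atp5a1 was at 1104, 1054 and 1038 CPM in rod TRAP and 670, 650 and 759 in retina (log2 difference 0.62 ± 0.11, adjusted p = 2.1e-04). Atp5b was at 2143, 2108 and 2044 CPM against 1358, 1208 and 1568 (0.61 ± 0.12, adjusted p = 4.3e-04), and Atp5pb at 261, 249 and 253 CPM against 174, 146 and 166 (0.65 ± 0.11, adjusted p = 2.1e-04). None of the 3 overlapped between fractions, and under the authors' scaling alone Atp5a1 and Atp5b were at -0.00 and -0.01. The small membrane subunit Atp5md, at 41.0, 38.9 and 39.9 CPM against 70.8, 50.3 and 73.4, was lower (-0.67, adjusted p = 0.0013), as were Atp5g2 (-0.48), Atp5e (-0.46) and Atp5k (-0.40). Atp5k lost its call in 3 of the 6 fits that leave out a library, Atp5e in 2 and Atp5g2 in 1. Of the 3 genes for the identical c-ring protein, Atp5g1 (-0.28) and Atp5g3 (-0.02) were not called. Atp5g2 was at 0.25 on the log2(TPM + 1) scale, where the gene was listed near 10 TPM against 724 to 2194 scaled counts, and 87.4% of its 50-base stretches also occur in another transcript, so its value is uncertain.

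**Figure D2:**
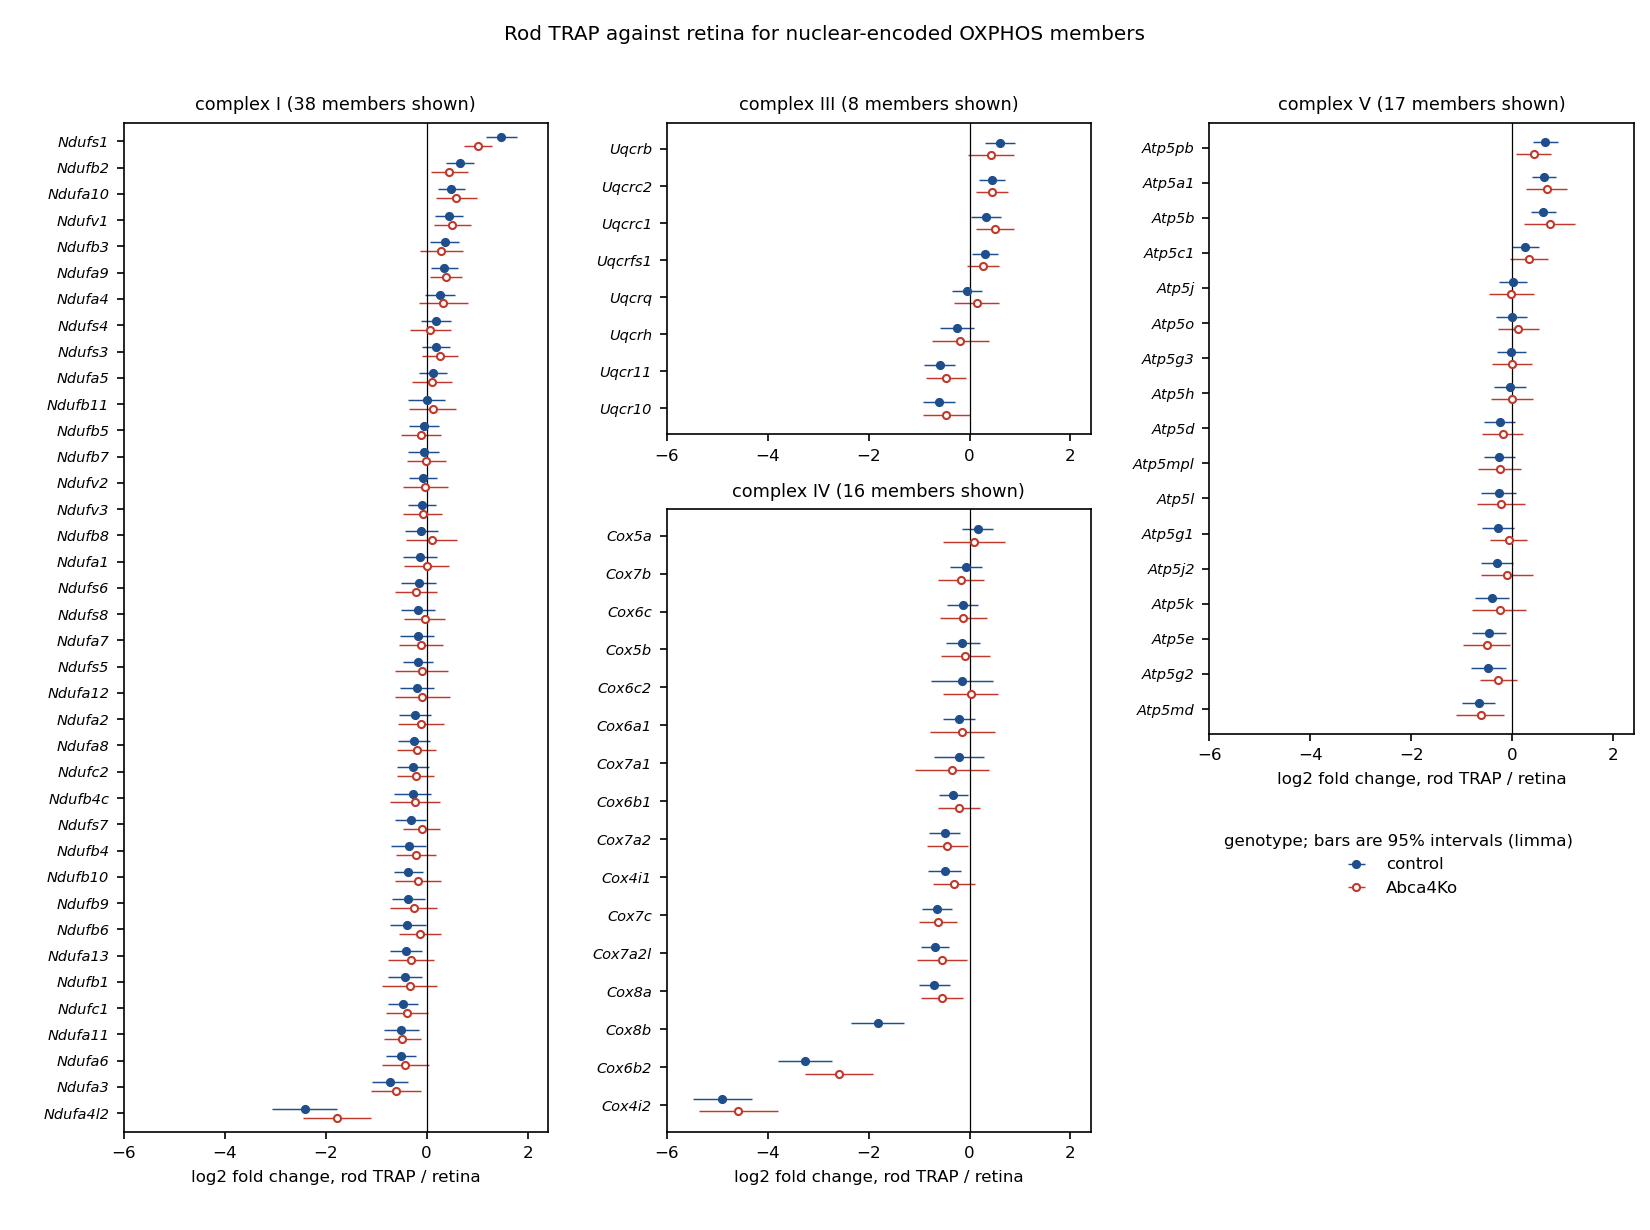
Log2 difference between rod TRAP and retina for the members, in a panel per complex, with filled points for control, open points for Abca4Ko and bars for limma's 95% interval. Among members grouped by name with complex IV, Cox5a at 0.16 is the highest in control and was not called. Ndufa4, at 0.26 in control and not called, stands in the complex I panel by its name. Cox4i2, Cox6b2, Cox8b and Ndufa4l2 lie far below the rest.

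In Abca4Ko, 11 of 79 members were higher in rod TRAP and 9 lower, against 29.4% higher and 34.3% lower of 16036 genes tested. With the replicate number as a block, a pairing that the check of the numbers left unclear for replicate 2, 14 were higher and 17 lower. Without both libraries labelled Abca4Ko replicate 3, 1 member, Ndufs1, was higher and 18 were lower, and the median moved from -0.11 to -0.39. Leaving out a single library gave 3, 6, 5, 1 and 1 higher members without rod TRAP replicates 1 and 2 and retina replicates 1, 2 and 3, and 14, 4, 4 and 30 lower members without rod TRAP replicates 1, 2 and 3 and retina replicate 3. The control and Abca4Ko comparisons share no library. All 11 higher members were among the 14 higher in control (78.6% of these), including Atp5a1, Atp5b, Atp5pb, Ndufa10, Ndufa9, Ndufb2, Ndufs1, Ndufv1, Uqcrc1 and Uqcrc2. All 9 lower members, Atp5md, Cox4i2, Cox6b2, Cox7c, Cox8a, Ndufa11, Ndufa3, Ndufa4l2 and Uqcr11, were among the 24 lower in control (37.5% of these). No member was called in opposite directions, and 71 of 79 (89.9%) had the same sign. Over the 15650 genes tested in both comparisons, 97.2% of those higher and 96.1% of those lower in Abca4Ko were called the same way in control and 93% had the same sign, so the agreement is that of genes at large.

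Levels in Abca4Ko followed the pattern seen in control for the members at the extremes. Ndufs1 was at 132, 137 and 134 CPM in Abca4Ko rod TRAP and 68.5, 65.7 and 65.4 in Abca4Ko retina (log2 difference 1.01 ± 0.13, adjusted p = 4.7e-05). Atp5b was at 2745, 2013 and 1911 CPM against 1676, 1301 and 1045 (0.74, adjusted p = 0.015), and Atp5a1 at 1253, 1027 and 973 CPM against 767, 709 and 563 (0.68, adjusted p = 0.0077). In Atp5b and Atp5a1 replicate 1 was the highest library of both fractions. Both lost their calls without Abca4Ko retina replicate 2 or the one labelled replicate 3, and Atp5b also without rod TRAP replicate 1. Their lowest values in fits that leave out a library were 0.42 for Atp5b and 0.40 for Atp5a1, while Ndufs1 was called in all 6. Cox8a was at 159, 125 and 122 CPM against 248, 193 and 156, so that the lowest retina library lay below the highest rod TRAP library (-0.54, adjusted p = 0.029). Ndufa3, at 26.7, 21.1 and 19.1 CPM against 46.2, 33.4 and 25.1, overlapped in the same way (-0.61, adjusted p = 0.036). In both genes the overlapping retina library was the one labelled Abca4Ko replicate 3. Cox8a and Ndufa3 lost their calls without Abca4Ko rod TRAP replicate 2 or the one labelled replicate 3.

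The direction of the fraction difference went with coding length and, to a like degree, with transcript length. Of the 81 members, 75 had a coding length in the GENCODE annotation, with a median of 393 nt, against 1431 nt over 13329 genes tested. Among 22 members of at most 300 nt, none was higher and 12 were lower in control rod TRAP, with a median of -0.36. Among 36 members over 300 and up to 600 nt, 3 were higher and 10 lower (-0.20), and among 9 over 600 and up to 1200 nt, 3 were higher and none lower (0.18). Among 8 members over 1200 nt, 7 were higher and none lower (0.50), the remaining member of that class being Ndufv3. The length used is that of the longest coding sequence annotated for a gene, which need not be the form present here. Over the other genes of the same length classes the medians were -0.57, -0.27, -0.14 and 0.14, so the longer classes were higher there too. In these classes 16.1%, 22.4%, 30.3% and 44.2% of the other genes were higher and 57.6%, 45.7%, 42.2% and 37.7% lower, so the share of members lower in the shortest class, 54.5%, was near that of other short genes. Across 75 members Spearman's rho between coding length and fraction difference was 0.53 and Pearson's r 0.37, with r = 0.66 over 71 members without Cox4i2, Cox6b2, Cox8b and Ndufa4l2. For transcript length rho was 0.55 and r 0.41, with r = 0.6 over the 71, so the lengths were not told apart. Genes are not independent replicates, all values share the same 6 libraries, and over 13254 other genes rho for coding length was 0.14. In Abca4Ko, rho over 74 members was 0.57 for coding length and 0.58 for transcript length. The class medians there were -0.25, -0.12, 0.26 and 0.59.

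Differences between members of the same library do not depend on how libraries were scaled. The median log2 level of the 8 members over 1200 nt minus that of the 22 members of at most 300 nt was 2.42, 2.60 and 2.39 in control rod TRAP and 1.51, 1.72 and 1.73 in control retina. It was 2.30, 2.52 and 2.33 in Abca4Ko rod TRAP and 1.31, 1.64 and 1.51 in Abca4Ko retina. Every rod TRAP library was therefore above every retina library on this measure, the libraries labelled Abca4Ko replicate 3 included. The short members include Cox8b and Ndufa4l2, which passed the filter through retina. Without these and Cox7a1, the difference was 2.31, 2.27 and 2.17 in control rod TRAP and 1.38, 1.65 and 1.61 in control retina. In Abca4Ko it was then 2.12, 2.34 and 2.15 in rod TRAP and 1.17, 1.48 and 1.33 in retina, again without overlap. The same held for the 7 core minus the 33 accessory genes of complex I, at 0.80, 0.97 and 0.90 in control rod TRAP, 0.95, 0.88 and 1.01 in Abca4Ko rod TRAP, 0.32, 0.38 and 0.45 in control retina, and 0.29, 0.30 and 0.71 in Abca4Ko retina. The 33 accessory genes were grouped by name and include Ndufa4, Ndufa4l2 and the pseudogene Ndufs6b. The fractions differ in RNA input, in pull-down and in cell composition, and the part of each in the length pattern was not tested.

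**Figure D3:**
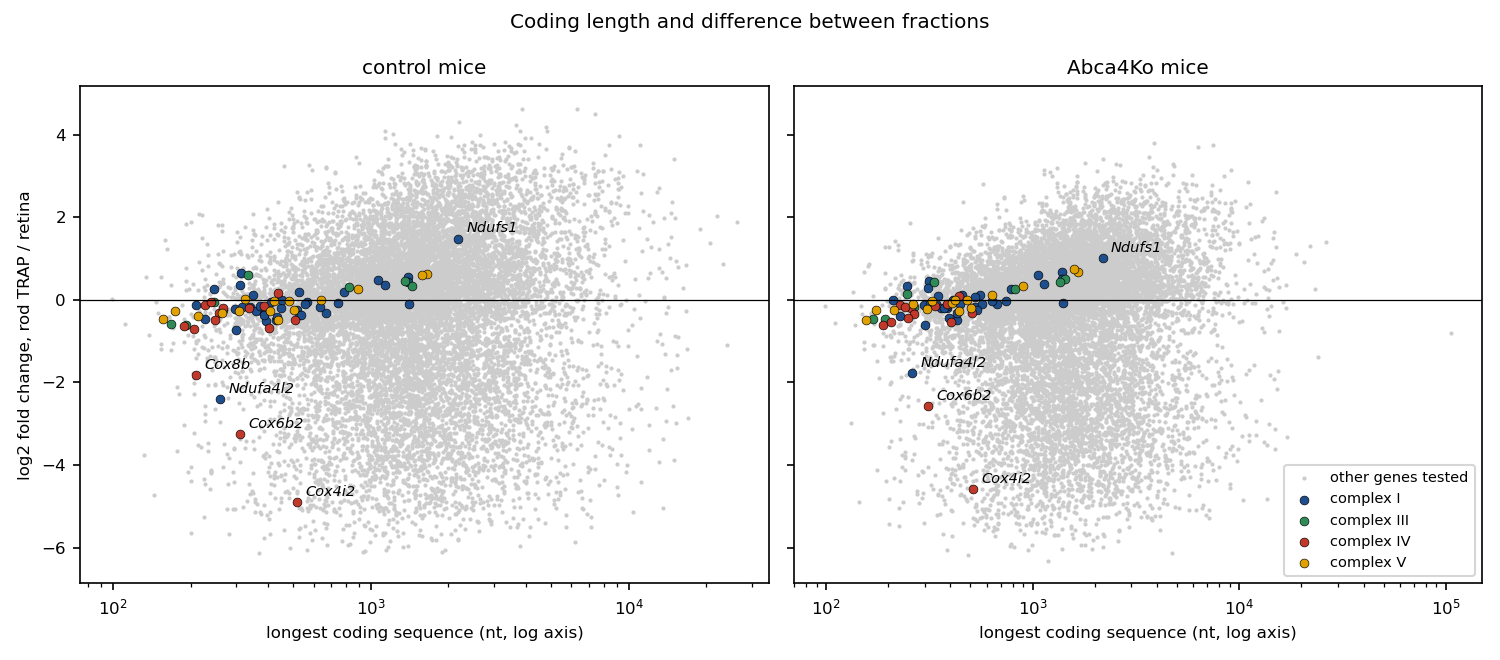
Log2 difference between rod TRAP and retina against the longest coding sequence in nt on a log axis, in control and in Abca4Ko, with a coloured point per member by complex and grey points for other genes tested. In control, members over 1200 nt have a median of 0.50 and members of at most 300 nt a median of -0.36.

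The tissue-restricted isoforms Cox4i2, Cox6b2 and Cox8b of complex IV passed the filter on low values mainly or wholly through retina, where they are high, so a lower value in rod TRAP was largely fixed by that filter and their p-values are no independent support. Cox4i2, the isoform of Cox4i1 known from lung and vascular smooth muscle, was at 3, 2 and 8 scaled counts in control rod TRAP and 387, 481 and 728 in control retina. In Abca4Ko it was at 17, 3 and 3 in rod TRAP and 499, 506 and 418 in retina. The log2 difference was -4.90 ± 0.27 (adjusted p = 6.8e-09) in control and -4.58 (adjusted p = 1.4e-06) in Abca4Ko, with no overlap in either. Cox6b2, described as a testis isoform of Cox6b1, was at 0, 1 and 5 scaled counts in control rod TRAP and 103, 117 and 151 in control retina (-3.26 ± 0.25, adjusted p = 1.2e-07). In Abca4Ko it was at 13, 5 and 3 against 98, 138 and 99 (-2.58, adjusted p = 2.8e-05), again with no overlap. Cox8b, the heart and muscle partner of Cox8a, was at 2 scaled counts in each control rod TRAP library and at 40, 25 and 58 in control retina (-1.82 ± 0.24, adjusted p = 2.0e-05). It was at 0 in all 3 Abca4Ko rod TRAP libraries and at 4, 15 and 18 in Abca4Ko retina, and it was not tested there. At levels this low the fitted difference depends on the offset of 0.5 and is no bound.

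In rod TRAP the widely expressed partner thus made up nearly the whole pair. Cox4i2 took 0.141 ± 0.110% of the Cox4i1 and Cox4i2 TPM in control rod TRAP, 0.213 ± 0.205% in Abca4Ko rod TRAP, 6.58 ± 1.27% in control retina and 6.80 ± 0.151% in Abca4Ko retina. Cox6b2 took 0.262 ± 0.393% and 0.452 ± 0.267% of its pair in rod TRAP and 5.26 ± 0.794% and 5.09 ± 0.850% in retina. Cox7a1, the heart and muscle partner of Cox7a2, was different, at 7.03 ± 2.09% of its pair in control rod TRAP and 5.36 ± 0.927% in control retina, and at 5.37 ± 1.57% and 4.99 ± 1.25% in Abca4Ko. Its scaled counts of 18, 30 and 26 in control rod TRAP and 40, 43 and 60 in control retina were separate. After trimmed-mean scaling they overlapped, at 1.31, 2.18 and 1.89 CPM against 1.85, 1.84 and 2.78, and the difference of -0.21 was not called. Markers of several other cell types were lower in control rod TRAP as well. The summed level of 8 endothelial and pericyte markers was 6.02 to 9.71 CPM of library totals there and 156 to 268 in control retina. Of these 8, 7 were lower with a median of -3.14, and none was at 0 in either group. Only 4 of them passed the filter in rod TRAP libraries alone, so for the rest a lower value was largely fixed by it. The fall was not particular to these cells. Medians were -4.3 over Müller glia, -4.42 over ganglion, -3.92 over amacrine, -3.37 over microglia and -4.43 over bipolar markers, 2 bipolar markers being higher. The part of any of these cell types in the isoform differences was not tested.

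**Figure D4:**
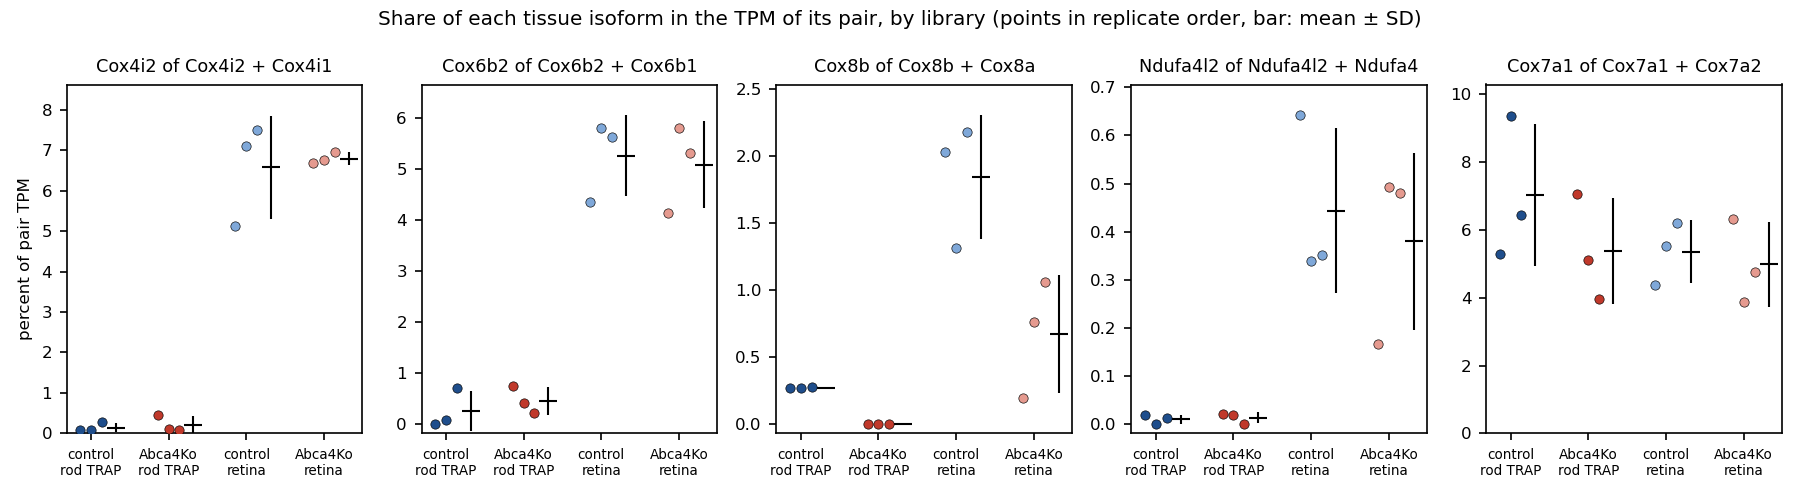
Share of the isoform pair's TPM, in percent, taken by Cox4i2, Cox6b2, Cox8b, Ndufa4l2 and Cox7a1 in each library, by group, with the mean and SD of 3 libraries. Cox4i2 and Cox6b2 lie below 1% in rod TRAP on average and between 5 and 7% in retina, while Cox7a1 does not separate the fractions.

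Promoters of the members were read for motifs of factors that bind nuclear genes of mitochondria, a feature the choice of members did not use. RefSeq promoters (build GRCm38.p6, 250 bases before to 50 after the gene start) were matched by symbol for 65 of 81 members. The NRF1 motif of 10 positions, 1 of them free, occurred on either strand in 23.1% of the 65 and in 5.19% of 27025 genes with a promoter. Unlike the members, the 27025 genes were not filtered by level, and a background filtered alike was not read. CCGGAAG, bound by ETS factors such as GABPA, occurred in 23.1% against 9.93%, and AAGATGGCG, bound by YY1, in 10.8% against 1.64%. At least 1 of the 3 motifs, none of which contains another, was present in 49.2% of member genes and 15.1% of all. By complex this was 45.5% for I, 60.0% for III, 25.0% for IV and 73.3% for V. Pairs of isoforms that differed in the fraction comparison are printed to show their start regions, with motif matches in capitals, beside Ndufs6, which holds the NRF1 and YY1 motifs. All are on the minus strand and are printed 5′ to 3′ along the gene: Cox6b1 at chr7:30626065-30626364, Cox6b2 at chr7:4753045-4753344, Cox8a at chr19:7217567-7217866, Cox8b at chr7:140900397-140900696 and Ndufs6 at chr13:73328433-73328732. The motif in Cox6b1 and Cox8a is the ETS motif read on the other strand, present at 2 places in Cox8a, and Cox6b2 and Cox8b hold none of the 3 in this window.
Cox6b1: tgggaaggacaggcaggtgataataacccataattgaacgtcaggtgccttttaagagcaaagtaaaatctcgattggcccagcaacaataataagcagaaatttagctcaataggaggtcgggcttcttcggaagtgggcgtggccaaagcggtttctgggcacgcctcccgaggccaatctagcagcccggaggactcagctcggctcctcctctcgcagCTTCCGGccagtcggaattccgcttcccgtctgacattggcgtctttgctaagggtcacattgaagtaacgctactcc
Cox6b2: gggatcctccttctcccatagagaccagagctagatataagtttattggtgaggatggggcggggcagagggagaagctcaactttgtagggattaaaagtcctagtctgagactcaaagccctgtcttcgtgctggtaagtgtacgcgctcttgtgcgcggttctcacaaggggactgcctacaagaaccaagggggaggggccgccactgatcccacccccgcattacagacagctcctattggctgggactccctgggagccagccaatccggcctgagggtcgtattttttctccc
Cox8a: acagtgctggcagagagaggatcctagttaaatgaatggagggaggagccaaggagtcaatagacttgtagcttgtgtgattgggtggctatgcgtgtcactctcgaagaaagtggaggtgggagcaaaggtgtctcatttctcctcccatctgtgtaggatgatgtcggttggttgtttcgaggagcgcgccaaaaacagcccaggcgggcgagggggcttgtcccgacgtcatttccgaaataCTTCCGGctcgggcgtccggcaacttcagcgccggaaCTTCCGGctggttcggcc
Cox8b: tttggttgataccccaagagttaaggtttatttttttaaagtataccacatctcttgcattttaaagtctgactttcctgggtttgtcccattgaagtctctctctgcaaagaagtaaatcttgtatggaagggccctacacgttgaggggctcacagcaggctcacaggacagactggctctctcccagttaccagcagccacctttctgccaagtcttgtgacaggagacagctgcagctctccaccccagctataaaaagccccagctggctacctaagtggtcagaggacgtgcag
Ndufs6: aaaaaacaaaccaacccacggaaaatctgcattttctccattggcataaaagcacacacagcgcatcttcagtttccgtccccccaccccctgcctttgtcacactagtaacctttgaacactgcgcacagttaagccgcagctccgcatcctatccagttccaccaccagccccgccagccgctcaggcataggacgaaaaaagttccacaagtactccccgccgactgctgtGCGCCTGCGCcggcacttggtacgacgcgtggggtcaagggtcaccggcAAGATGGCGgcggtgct

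Other nuclear genes of the pathway, from a list that names complex II, cytochrome c, Ndufab1, assembly factors and regulators, were tested in the same fits. Ndufab1 is an acyl carrier subunit of complex I that the choice by name did not match, and it was not called (0.11 in control). Of 59 tested, 23 were higher and 11 lower in control (median 0.21), and 20 were higher and 7 lower in Abca4Ko (median 0.26). The shares higher, 39% and 33.9%, were near those of all genes given above, and the shares lower were 18.6% and 11.9%. Their median coding length was 882 nt, above that of the members. Among 11 regulators, 8 were higher and 1 lower in control rod TRAP, with a median of 1.08. The coactivator Ppargc1a differed by 3.11 ± 0.14 (adjusted p = 1.7e-09), the ETS factor subunit Gabpa by 2.78, Yy1 by 1.45, the mitochondrial transcription factor Tfam by 1.08 and Nrf1 by 0.74, while the nuclear receptor Esrra was lower (-0.84). The flavoprotein of complex II, Sdha, was higher (1.06) and its iron-sulfur partner Sdhb lower (-0.44). The 13 subunits encoded by mitochondrial DNA were all lower in rod TRAP, with medians of -4.41 in control and -4.82 in Abca4Ko. They took 0.0454 to 0.0604% of scaled counts in control rod TRAP against 1.74 to 2.22% in control retina. These messages are translated inside mitochondria, away from the tagged cytosolic ribosomes that were pulled down. The difference is therefore no measure of their level in rods.

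Abca4Ko was compared with control within each fraction to ask whether loss of the transporter alters these messages. In rod TRAP, limma called none of 76 tested members, 1 passed an unadjusted p of 0.05, and 1.12% of 13104 genes tested were called. The members' log2 differences ran from -0.18 to 0.26, with a median of 0.07, against 0.00 over all genes, and 54 of 76 were above 0. By complex the medians were 0.03 for I, 0.07 for III, 0.13 for IV and 0.09 for V. The groups did not overlap in 3 of 76 members, against 17.5% of all genes tested. These were Ndufb2 (0.26 ± 0.10, adjusted p = 0.37), Cox8a (0.25 ± 0.12, adjusted p = 0.49) and, in the other direction, Ndufs1 (-0.07). Cox8a was at 1554, 1669 and 1656 scaled counts in control rod TRAP and 2223, 1808 and 1768 in Abca4Ko rod TRAP, the first of these standing apart from the others. Ndufb2 was at 537, 536 and 574 against 664, 683 and 614, where the 3 Abca4Ko libraries were closer to each other. The complex V members Atp5k (0.23), Atp5d (0.17) and Atp5g2 (0.16) completed the 5 members of smallest p in rod TRAP and were not called.

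In retina, limma again called none of 81 tested members, 1 passed an unadjusted p of 0.05, and 0.112% of 16964 genes tested were called. The differences ran from -1.26 to 0.36 with a median of -0.12, against -0.01 over all genes, and 12 of 81 were above 0. The medians were -0.15 for complex I, -0.11 for III, -0.10 for IV and -0.12 for V. The groups did not overlap in 3 of 81 members, against 19.7% of all genes tested. The gene with the smallest p was Cox8b, at 40, 25 and 58 scaled counts in control retina and 4, 15 and 18 in Abca4Ko retina (log2 difference -1.26 ± 0.34, adjusted p = 0.41). Its share of the Cox8a and Cox8b TPM was 2.02, 1.31 and 2.18% in control retina and 0.194, 0.759 and 1.06% in Abca4Ko retina, which also did not overlap. The other members without overlap were Ndufb2 (0.36 ± 0.18, adjusted p = 0.43), at 569, 586 and 515 scaled counts against 775, 636 and 722, and Ndufs1 (0.28). By TPM, Ndufb2 overlapped in both fractions, at 181, 170 and 226 in control retina against 179, 217 and 179 in Abca4Ko retina, and at 108, 114 and 138 in control rod TRAP against 155, 148 and 126 in Abca4Ko rod TRAP. Uqcrc1 (-0.32) and Ndufc2 (-0.29) completed the 5 members of smallest p and were not called.

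The members of the 4 complexes deviated together from library to library, also within a genotype. Taken as deviations from the mean of the 6 libraries of a fraction, the median over members was -0.02, -0.06 and -0.02 in control rod TRAP and 0.31, -0.10 and -0.13 in Abca4Ko rod TRAP. In Abca4Ko rod TRAP replicate 1, 75 of 76 members were above the mean. In retina the medians were 0.11, -0.20 and 0.28 in control and 0.24, -0.06 and -0.37 in Abca4Ko, and in the library labelled Abca4Ko replicate 3 only 2 of 81 members were above the mean. The spread between Abca4Ko libraries thus exceeded the difference between genotypes in both fractions. Other genes of at most 600 nt deviated the same way by less, at 0.17 in Abca4Ko rod TRAP replicate 1 and -0.17 in the retina library labelled Abca4Ko replicate 3. Genes encoded by mitochondrial DNA took 0.182% of scaled counts in Abca4Ko rod TRAP replicate 1 and 0.0540% and 0.0494% in the other 2 libraries of that group. In retina they took 2.22%, 1.74% and 1.76% in control and 5.44%, 2.59% and 3.03% in Abca4Ko, without overlap. Of these 13 genes limma called none between genotypes in retina, where 19.7% of all genes tested did not overlap. The part of these genes in the members' median there was not tested. What set these libraries apart was not tested.

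Because of this, the sign of the members' median rested on single libraries. In rod TRAP it was 0.07 with all libraries and -0.07 without Abca4Ko replicate 1, where 14 of 76 members were above 0 and Atp5e was called lower (-0.36, adjusted p = 0.030). It was 0.15 without the library labelled Abca4Ko replicate 3, where 72 of 76 were above 0, and 0.14 without Abca4Ko replicate 2. In retina it was -0.12 with all libraries, 0.02 without the library labelled Abca4Ko replicate 3, -0.28 without Abca4Ko replicate 1 and, with control replicates 2 and 3 left out in turn, -0.27 and -0.02.

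**Figure D5:**
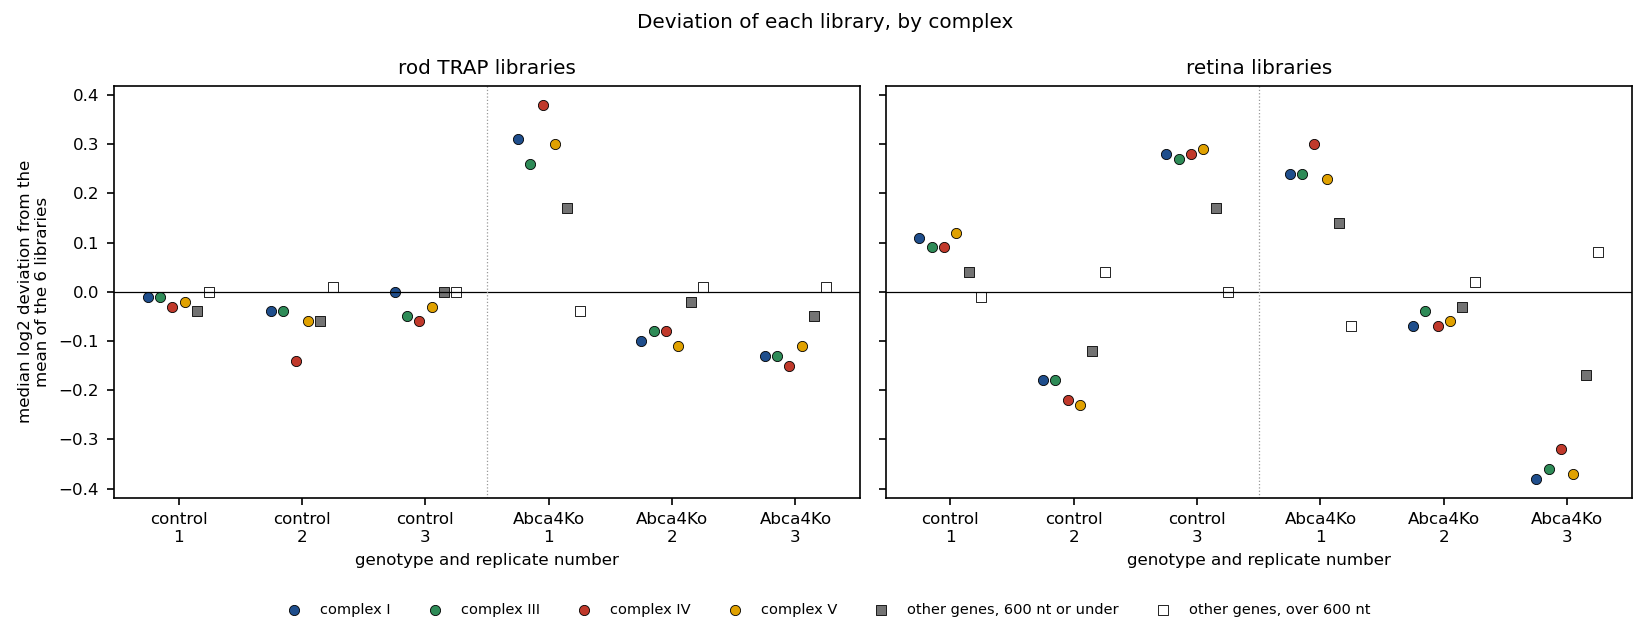
Median log2 deviation of the members of each complex from the mean of the 6 libraries of a fraction, for each library, with squares for other genes of at most 600 nt and over 600 nt. The points of the 4 complexes lie together in each library, with a median over all members of 0.31 in Abca4Ko rod TRAP replicate 1 and -0.37 in the retina library labelled Abca4Ko replicate 3.

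Whether the genotype difference was itself different in the fractions was tested as an interaction over all 12 libraries. None of 81 members was called by limma, 1 passed an unadjusted p of 0.05, and 0.00579% of 17273 genes tested were called. The median interaction was 0.18 over members and 0.01 over all genes, with 73 of 81 above 0, and it was 0.01 without the retina library labelled Abca4Ko replicate 3, 0.02 without Abca4Ko rod TRAP replicate 1 and 0.09 without both libraries labelled Abca4Ko replicate 3. The members with the smallest p included Cox8b (0.84 ± 0.36, adjusted p = 0.43), Ndufs1 (-0.37 ± 0.19, adjusted p = 0.47), Cox6b2 (0.75), Ndufa4l2 (0.71) and Ndufs7 (0.33), of which Cox8b, Cox6b2 and Ndufa4l2 were at or near 0 scaled counts in rod TRAP. Ndufs1 was at 102 ± 4.02 TPM in control rod TRAP and 92.9 in Abca4Ko rod TRAP, and at 44.6 ± 10.2 in control retina and 53.8 in Abca4Ko retina.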

How the data were processed

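Polyadenylated RNA from 6 rod TRAP and 6 retina samples had been sequenced, and the authors' processing notes name CASAVA 1.8.2, HISAT2, DESeq2, edgeR and the mouse build GRCm39. The deposited gene values, here called scaled counts, are a score: the authors scaled read counts to a near-equal total within each fraction and rounded them, so count models were not used. TPM values were deposited by the authors beside them, and the original depth was recovered only for 8 libraries. Tests were run in R 4.3.3 with limma 3.58.1 (trend and robust options, two-sided) on log2(CPM + 0.5) after trimmed-mean scaling, on genes with at least 10 scaled counts in 3 libraries of the comparison. Python 3.11.15 was used for the rest, and the procedure was tested on simulated data. Groups came from the labels, with 3 libraries each.

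The members and gene lists were chosen with earlier results of these data known. Named members are the 3 highest and 3 lowest of each complex in each fraction comparison, the 5 of smallest p in each genotype comparison and in the interaction, the isoform pairs, and those called; abundant members and those given as counter-examples were named after their values were seen. Replicate numbers are shared between groups. Deviations from the group mean of the same-numbered rod TRAP and retina libraries correlated at 0.226 to 0.423 in control and 0.272 to 0.605 in Abca4Ko over 10416 genes. Abca4Ko rod TRAP replicate 2, however, correlated at 0.374 with retina replicate 3, above its 0.272 with retina replicate 2. The numbers were taken to pair the fractions from the data, since the labels do not state that they mark the same mice. For Abca4Ko replicate 2 this pairing is unclear. Coding lengths came from GENCODE vM21 by gene name, and promoters from RefSeq. Alternatives were the authors' scaling, median-of-ratios scaling, no filter, another offset, TPM, a replicate block and leaving out each library. Amino acid sequences were not used here. The values of 1 member that counts toward the totals are not reported here.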

Additional observations from a re-analysis of the deposited data

How the results depend on the processing

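With 3 libraries per group and no original read counts, differences within the spread of single libraries could not be resolved, and the scaling between fractions sets how many members fall on each side of 0. In control, 14 members were higher and 24 lower in rod TRAP. With the authors' scaling alone 1 was higher and 68 lower, with a median of -0.80 against -0.62 over all genes, and with log2(TPM + 1) 6 were higher and 58 lower, with a median of -0.49. Leaving out a library gave 5 to 11 higher, 17 to 54 lower and a median of -0.52 to -0.17. In Abca4Ko, 11 were higher and 9 lower. The authors' scaling gave 1 and 55 with a median of -0.61, log2(TPM + 1) gave 5 and 40, median-of-ratios scaling gave 14 lower, and the replicate block gave 14 higher and 17 lower. Leaving out a library gave 1 to 9 higher, 4 to 30 lower and a median of -0.45 to -0.02, and leaving out both libraries labelled Abca4Ko replicate 3, an alternative chosen after seeing the data, gave 1, 18 and -0.39. Called in all 6 fits that leave out a library were 5 of 14 higher and 9 of 24 lower members in control, and 1 of 11 and 3 of 9 in Abca4Ko. A further 4 lower members in control (Cox4i2, Cox6b2, Cox8b and Ndufa4l2) and 1 in Abca4Ko (Ndufa4l2) were not tested in every such fit, since they pass the filter through retina. The cause of these shifts was not tested beyond the scaling itself and the smaller number of samples.

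Most higher members changed sign under the authors' scaling alone, with the shift of all genes: 3 of 14 in control and 5 of 11 in Abca4Ko kept it, and all 24 and 9 lower members did. Among named members, those that changed included, in control, Atp5a1 (-0.00), Atp5b (-0.01), Cox5a (-0.46), Ndufa4 (-0.37), Ndufs3 (-0.44), Ndufv1 (-0.19), Uqcrb (-0.02), Uqcrc1 (-0.30) and Uqcrc2 (-0.18), and in Abca4Ko Atp5pb (-0.09), Ndufv1 (-0.00), Uqcrc1 (-0.01) and Uqcrc2 (-0.06). With log2(TPM + 1) in control Atp5g2 was at 0.25 and Ndufb2 at -0.67, and Uqcrc1 was at -0.03 without control retina replicate 2 and reached 0.36 when other libraries were left out.

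Between genotypes no member was called under any alternative except 1 lower member in rod TRAP with log2(TPM + 1), Cox8b (-1.30, adjusted p = 0.046), and 1, Atp5e, without Abca4Ko rod TRAP replicate 1. Leaving out a library gave medians of -0.07 to 0.15 in rod TRAP, -0.28 to 0.02 in retina and 0.01 to 0.31 for the interaction. In the genotype comparisons same-numbered libraries shared only a number, with correlations of -0.191 to 0.035 in rod TRAP and -0.541 to 0.007 in retina, and the replicate block changed no call there, in the interaction or, beyond 24 to 26 lower members, in the control fraction counts.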
